A study of Homo sapiens with 32 samples.

Results

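The comparison described here is SNGM cells given paclitaxel and SM08502 together against SNGM cells given vehicle, and it rests on 4 of the 32 libraries of the study, 2 per group, chosen by cell line and treatment. The study treated 4 human endometrial cancer cell lines with vehicle, paclitaxel, SM08502 or both drugs, with 2 libraries for each line and treatment, to ask how inhibition of CDC-like kinases (CLKs) combines with a taxane in cells with mutated CTNNB1. SNGM is an established endometrial cancer line that the labels give as CTNNB1-mutated. Vehicle was 0.1% DMSO, and the combination was 11.7 nM paclitaxel with 350.7 nM SM08502, each being the dose that lowered viability of this line by 50% on its own. The other SNGM groups, used for reference, received 11.7 nM paclitaxel alone or 350.7 nM SM08502 alone. All cells attached for 16 h and were then treated for 24 h, and total RNA depleted of ribosomal RNA was sequenced. Cells were plated in duplicate and nothing in the labels says that the 2 libraries of a group come from separate experiments, so every p-value below measures the spread between these samples, which may be technical.

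Paclitaxel binds tubulin, stabilises microtubules and arrests dividing cells in mitosis. SM08502 inhibits the CLKs, which phosphorylate SR proteins, the serine- and arginine-rich factors that select exons during splicing. CTNNB1 encodes beta-catenin, the coactivator at the end of the Wnt pathway, whose mutated forms escape the degradation that normally follows when no Wnt ligand is bound.

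Library depth was unequal, and that bears on every value of the combination. The vehicle libraries held 31.3 and 34.1 M reads (M, 1000000) and combination 1 held 27.0 M, whereas combination 2 held 1.61 M, so that 1 read in it was worth 0.622 CPM (counts per 1000000 reads) and a gene with no read in it could have a level of up to 1.87 CPM. The root mean square difference between the 2 libraries of a group, over tested genes and on the log2 scale, was 0.220 for vehicle and 0.478 for the combination. The vehicle libraries also differed from each other: mitochondrially encoded genes took 5.37 and 9.99% of their reads, against 7.38 and 4.07% in the combination. A length score, taken as the mean log2 level of 28 very long genes less the mean of the ribosomal protein genes, was -0.59 and -0.16 in vehicle and -0.49 and -0.90 in the combination. The part of depth and of mitochondrial share in the results below was not tested, and that of the length score only where a value with it as a covariate is given.

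Markers of the labelled cell type were in part present: 11 of 20 genes of epithelial and endometrial identity passed the level filter. EPCAM, an epithelial adhesion protein, was at 153 and 129 CPM in vehicle and at 185 and 152 CPM in the combination. PAX8, a transcription factor of the Mullerian tract, was at 274 and 405 CPM in vehicle and 322 and 197 CPM in the combination. The progesterone receptor gene PGR and the transcription factor gene SOX17 were at or near 0. The mesenchymal and matrix list summed to 1985 and 2054 CPM in vehicle, above the 1292 and 1366 CPM of the identity list, with VIM, an intermediate filament gene, at 1817 and 1882 CPM. Of the marker genes of other cell types, none of 7 for fibroblasts and none of 5 for endothelium reached the level filter, and their summed levels were 7.57 and 10.3 CPM in vehicle against 6.86 and 11.2 CPM in the combination for fibroblasts, and 3.26 and 4.92 against 4.19 and 2.49 CPM for endothelium. The 6 leukocyte markers summed to 26.3 and 26.9 CPM in vehicle and 36.4 and 26.1 CPM in the combination, and CD68, a lysosomal protein also made outside leukocytes, was their only member above the filter.

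With both drugs, SNGM cells had more RNA of stress response genes, of targets of p53 and of 3 CLK genes, and less RNA of several genes that run mitosis. Of 9642 genes with a mean of at least 10 CPM over the 8 SNGM libraries, 566 were called higher and 451 lower than in vehicle by limma at an adjusted p under 0.05, which is 5.87 and 4.68% of the genes tested, or 10.5% in either direction. All 1017 called genes had combination levels that did not overlap those of vehicle, as did 50.8% of all tested genes. Changes of at least 2-fold were called for 41 genes that were higher and 97 that were lower, and the median log2 change over all tested genes was 0.06. In the same 9642 genes, a fit that took its spread from all 32 libraries called 1460 higher and 867 lower, 15.1 and 8.99%, among them 952 of the 1017. The calls depend on having both vehicle libraries: without vehicle 1 or without vehicle 2, 1 gene (CTGF) was called, while 1941 and 1668 genes had an unadjusted p under 0.05, and a fit to the 4 libraries alone called 16. Without combination 2 the count was 1142, of which 742 are among the 1017, and without combination 1 it was 3558, of which 1010 are. Without combination 1, combination 2 with its 1.61 M reads stands alone for its group, and the spread comes from the deeper groups only. Counts from such a fit, here and below, show dependence on that library and are no further hits. Of the 1017 calls 55.7% were higher. That share was 37.4% when each library was centred on its median over the tested genes and 45.3% after quantile normalization.

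CTGF, which encodes the secreted matrix protein connective tissue growth factor (now CCN2, chr6:131948176-131951372) and is a target of the YAP coactivator, rose most. It was at 19.2 and 16.1 CPM in vehicle and at 76.6 and 79.0 CPM in the combination. Both combination libraries lay above every other SNGM library, the nearest being the SM08502 libraries at 43.9 and 44.7 CPM. The change was 4.40-fold on mean CPM, or 2.08 on the log2 scale (SE 0.12, limma adjusted p 0.00141), and it stayed called without vehicle 1 (2.20, adjusted p 0.0132) and without vehicle 2 (1.96, adjusted p 0.0272).

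SLC7A11 (chr4:138164097-138242349), the cystine importer that feeds glutathione synthesis, went from 71.4 and 63.9 CPM to 215 and 228 CPM, a log2 change of 1.70 (SE 0.12, limma adjusted p 0.00297). CHAC1 (chr15:40953471-40956512), an enzyme that degrades glutathione, went from 8.30 and 5.39 CPM to 29.0 and 21.2 CPM (1.74, SE 0.25, adjusted p 0.0104). GDF15 (chr19:18386158-18389176), a secreted stress cytokine, went from 234 and 218 CPM to 738 and 581 CPM (1.53, SE 0.14, adjusted p 0.00377). In these 3 genes the libraries of each group were closer to each other than to those of the other group. Without vehicle 1 or vehicle 2, their adjusted p ranged from 0.0525 to 0.0894.

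Of the remaining large rises, those of CLK1 and CLK4 are given below with their family. The others were in genes with less certain counting or lower levels. FAM200B went from 23.3 CPM in both vehicle libraries to 58.9 and 60.4 CPM (1.32, SE 0.11, limma adjusted p 0.00377), and GPR158, an orphan receptor of the G protein-coupled type, from 8.69 and 7.33 to 22.7 and 20.5 CPM (1.33, SE 0.15, adjusted p 0.00576). ROCK1P1, a pseudogene of the kinase ROCK1, went from 49.7 and 44.1 CPM to 171 and 159 CPM (1.80, SE 0.16, adjusted p 0.00377), and the pseudogene ZBTB45P1 from 11.1 and 11.2 to 30.7 and 33.6 CPM (1.44, SE 0.13, adjusted p 0.00377). The cytidine deaminase gene APOBEC3F (1.37) and the pseudogene OR2A9P (1.36) were called as well. Reads of these last 4 genes can be shared with near-identical copies, so their values are uncertain, and OR2A9P also differed between the 2 combination libraries, at 24.7 and 10.6 CPM.

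**Figure D1:**
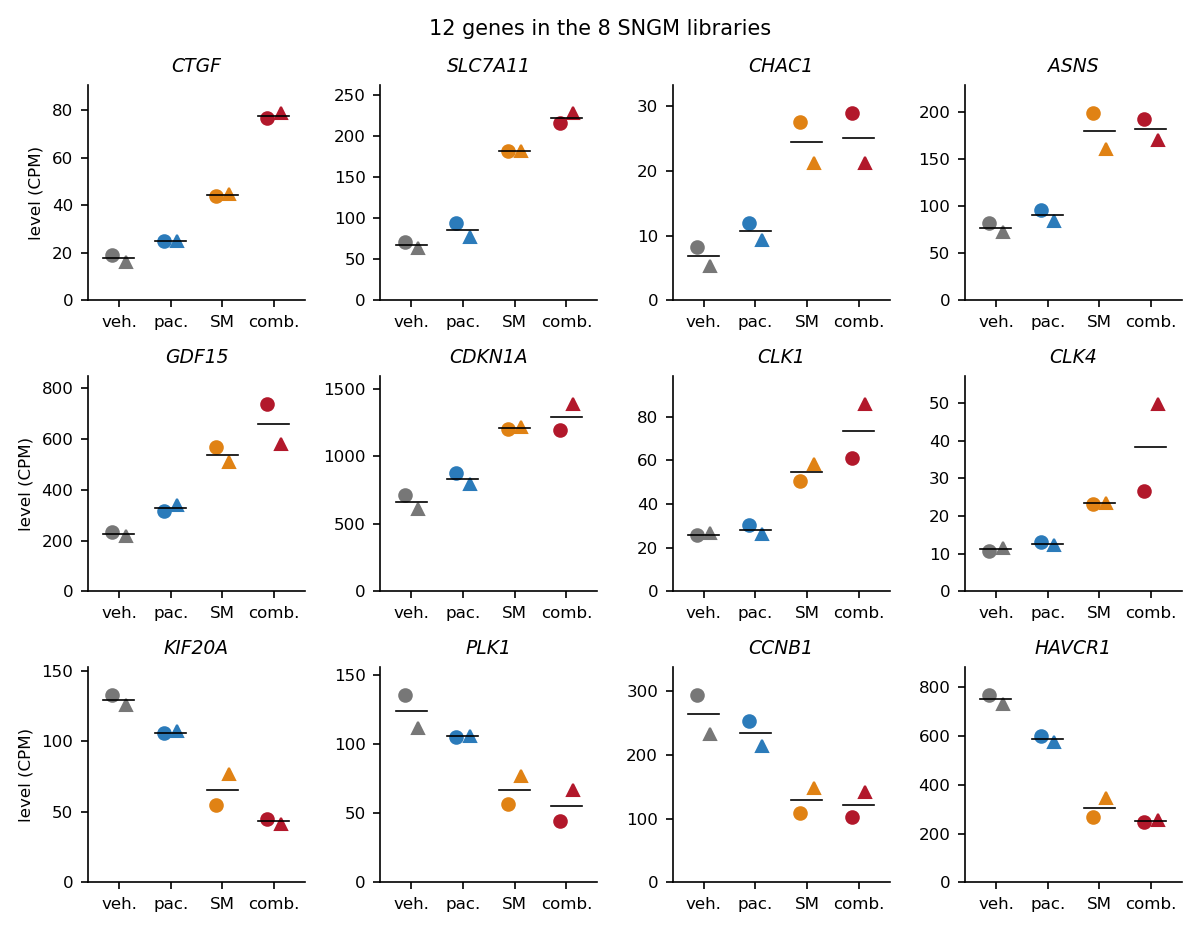
Level in CPM (vertical axis, linear) of 12 genes in the 8 SNGM libraries by treatment (veh., vehicle; pac., paclitaxel; SM, SM08502; comb., both drugs); circles are replicate 1, triangles replicate 2 and lines group means. In each gene the combination libraries lie on one side of the vehicle libraries, and CTGF is at 76.6 and 79.0 CPM against 19.2 and 16.1 CPM.

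Among the 12 largest falls, HAVCR1 (chr5:157029413-157069407), a membrane receptor also known as kidney injury molecule 1, was the most abundant in vehicle. It went from 769.6 and 731 CPM in vehicle to 246 and 256 CPM in the combination, 2.99-fold lower on mean CPM (log2 change -1.57, SE 0.14, limma adjusted p 0.00377). CCDC109B, the dominant-negative pore subunit of the mitochondrial calcium uniporter (now MCUB, chr4:109560246-109688719), went from 38.6 and 35.5 CPM to 10.0 and 8.09 CPM (-1.92, SE 0.19, adjusted p 0.00450). ITGB5, an integrin subunit that binds vitronectin, went from 59.2 and 52.9 CPM to 17.3 and 13.1 CPM (-1.83, SE 0.19, adjusted p 0.00450). In each of these genes the lowest vehicle library was far above the highest combination library.

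IGFBP5, a secreted binding protein of insulin-like growth factors, went from 23.0 and 25.7 CPM to 6.19 and 5.60 CPM (-1.88, SE 0.19, limma adjusted p 0.00450). FLRT3, a membrane adhesion protein, went from 22.5 and 17.1 CPM to 4.38 and 6.84 CPM (-1.67, SE 0.25, adjusted p 0.0112). AKR1C1 and AKR1C3, aldo-keto reductases that act on steroids including progesterone and androgens, each changed by -1.67, AKR1C1 from 50.5 and 45.6 to 14.5 and 14.3 CPM. The AKR1C genes are close paralogs, so the split of reads between them is uncertain.

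The other 5 of the 12 largest falls rest on less even libraries. GABRP, a GABA receptor subunit, was at 14.5 and 30.6 CPM in vehicle and 7.20 and 1.24 CPM in the combination (-2.37, SE 0.61, limma adjusted p 0.0473), HHLA1 at 27.9 and 60.0 against 13.6 and 6.84 CPM (-1.97), and the kinase gene LRRK1 at 283 and 539 against 164 and 103 CPM (-1.58). For these 3 genes vehicle 2 lay far above vehicle 1, and with the length score as a covariate their changes were -1.27, -1.10 and -0.91. GABRP was also -3.30 without combination 1 and -1.43 (adjusted p 0.0713) without combination 2. ZNF165, a zinc finger gene (-1.59), and PRR11, a cell cycle gene (-1.65), were at 8.53 and 2.49 CPM and at 26.0 and 10.6 CPM in the combination, against 16.4 and 16.4 CPM and 49.8 and 59.8 CPM in vehicle, and their changes spanned -2.32 to -0.87 and -2.26 to -1.04 over the alternatives.

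**Figure D2:**
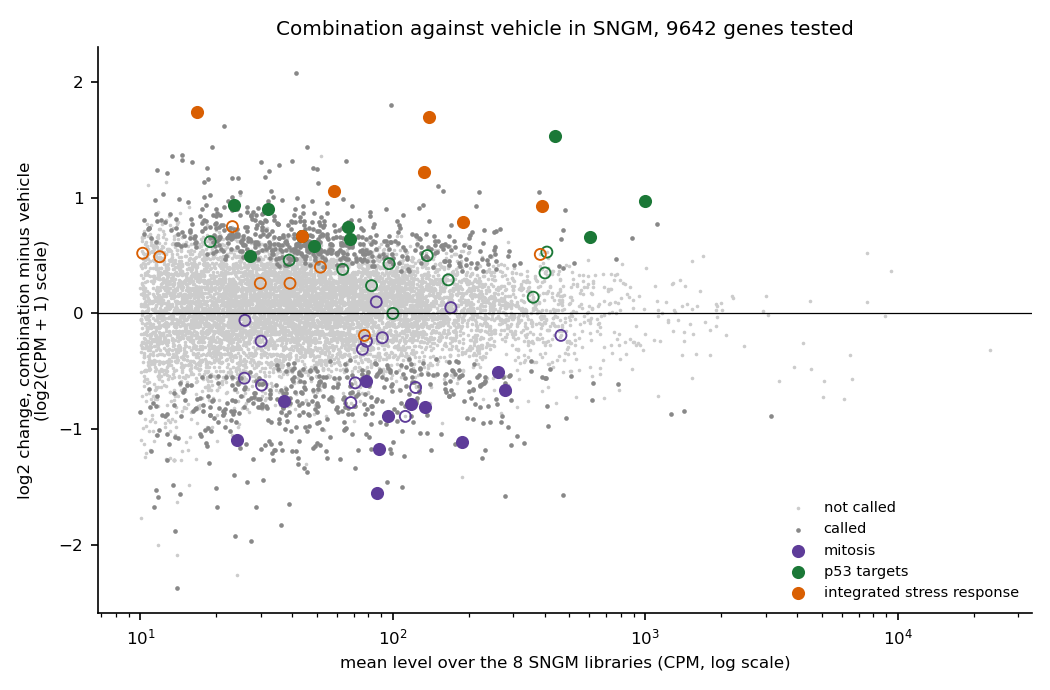
Log2 change, combination minus vehicle (vertical axis, on the log2(CPM + 1) scale), against the mean level over the 8 SNGM libraries (horizontal axis, CPM, log scale) for the 9642 tested genes; dark grey points were called, and in the coloured lists filled circles were called and open circles were not. The 7 called stress response genes and 10 called p53 targets lie above 0 and the 11 called mitosis genes below it.

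Among genes of mitosis many fell and none rose. Of 25 tested members of a list of mitotic kinases, spindle checkpoint and kinetochore genes, 11 were called lower and none higher, beside 4.68% of all tested genes called lower. The list median was -0.62 on the log2 scale against 0.06 over all tested genes, and 23 members were below 0. Summed over the list, the level was 3523 and 3189 CPM in vehicle and 2026 and 2574 CPM in the combination, so that the groups did not overlap. In bulk RNA, fewer cells near mitosis and less RNA per cell cannot be told apart. Without either vehicle library no member was called, with 12 and 16 at an unadjusted p under 0.05. Without combination 1 the count was 11, of which 1 higher, and without combination 2 it was 16.

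The promoters of some of these genes are known for a cell cycle element, the cell cycle homology region. Only its letters TTTGAA were searched, on both strands, and no other form of the element was. For 3 genes that contrast in these letters, RefSeq windows (GRCh38.p14) of 250 bases before and 50 after the start are shown. They read 5' to 3' on the gene's strand, with TTTGAA in capitals where it was found. PLK1 is at chr16:23678639-23678938 and CENPA at chr2:26785806-26786105, both on the plus strand, and KIF20A, which has no match, is at chr5:138178862-138179161 on the plus strand.
PLK1: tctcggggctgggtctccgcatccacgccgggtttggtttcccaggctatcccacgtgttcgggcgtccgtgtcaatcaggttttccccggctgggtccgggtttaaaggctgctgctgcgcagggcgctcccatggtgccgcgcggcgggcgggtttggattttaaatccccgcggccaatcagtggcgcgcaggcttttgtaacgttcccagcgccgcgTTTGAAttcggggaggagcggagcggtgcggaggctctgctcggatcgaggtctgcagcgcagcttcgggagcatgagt
CENPA: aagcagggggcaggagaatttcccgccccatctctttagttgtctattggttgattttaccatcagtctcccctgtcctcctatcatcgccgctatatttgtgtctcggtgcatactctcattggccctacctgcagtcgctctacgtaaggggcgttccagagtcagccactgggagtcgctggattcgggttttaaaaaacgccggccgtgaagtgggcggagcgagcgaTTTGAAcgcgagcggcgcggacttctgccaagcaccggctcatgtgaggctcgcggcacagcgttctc
KIF20A: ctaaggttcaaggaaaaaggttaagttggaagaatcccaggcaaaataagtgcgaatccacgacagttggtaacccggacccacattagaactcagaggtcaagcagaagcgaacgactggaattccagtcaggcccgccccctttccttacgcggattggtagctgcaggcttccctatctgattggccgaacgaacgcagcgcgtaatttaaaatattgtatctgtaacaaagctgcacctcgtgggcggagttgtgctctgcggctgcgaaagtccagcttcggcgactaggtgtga
The match begins at base -29 in PLK1 and at base -18 in CENPA. TTTGAA was found in 13 of the 20 mitosis genes with a promoter entry, 65%, and in 9.54% of 7897 tested genes and 15.2% of all 34796 promoters. Within the list it was in 5 of 10 genes called lower and in 8 of 10 not called.

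KIF20A (chr5:138179112-138187723), a kinesin needed for cytokinesis, had the largest fall of the list. It was at 133 and 126 CPM in vehicle and at 45.2 and 41.7 CPM in the combination, 2.98-fold lower on mean CPM (log2 change -1.55, SE 0.16, limma adjusted p 0.00450). Its combination libraries lay below all other SNGM libraries. Without vehicle 1 and without vehicle 2 its adjusted p was 0.0549 and 0.0575.

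Kinases and a cyclin of mitotic entry and the spindle checkpoint followed. PLK1, which drives centrosome maturation and mitotic entry, went from 136 and 112 CPM to 44.2 and 66.6 CPM (-1.17, SE 0.21, limma adjusted p 0.0189). CCNB1 (chr5:69167150-69178245), cyclin B1, which activates CDK1 at mitotic entry, went from 295 and 233 CPM to 103 and 142 CPM (-1.11, SE 0.21, adjusted p 0.0214). BUB1, a spindle checkpoint kinase, went from 185 and 162 to 84.2 and 114 CPM (-0.81, SE 0.18, adjusted p 0.0338). For all 3 the highest combination library was below the lowest vehicle library, and combination 2 was the higher of its group.

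Genes of the kinetochore and of anaphase fell too. CENPA, the histone H3 variant of centromeres, went from 36.1 and 29.4 CPM to 13.0 and 16.8 CPM (-1.09, SE 0.19, limma adjusted p 0.0167). CDC20, which activates the anaphase-promoting complex, went from 139 and 114 CPM to 63.5 and 71.6 CPM (-0.89, SE 0.15, adjusted p 0.0151), and PTTG1, securin, from 163 and 141 to 88.5 and 87.7 CPM (-0.78, SE 0.12, adjusted p 0.0125). CENPE, the kinetochore motor, went from 47.5 and 51.2 CPM to 30.3 and 27.4 CPM (-0.76, SE 0.13, adjusted p 0.0158), and CENPF (-0.66), KIF23 (-0.58) and TPX2 (-0.51) complete the calls.

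Not every mitosis gene passed. AURKA, a spindle pole kinase, had a value of -0.77 (limma adjusted p 0.0670), and CCNA2, cyclin A2, had -0.89 (adjusted p 0.167), with combination libraries at 49.1 and 124 CPM against 162 and 131 CPM in vehicle. CDK1 had -0.21, the topoisomerase gene TOP2A -0.19, and the checkpoint genes BUB3 and MAD2L1 0.05 and 0.10. Of 24 genes of DNA replication and E2F control none was called by limma, with 1 at an unadjusted p under 0.05 and 1 called by limma voom, and their median was 0.06. Without combination 1, 4 were called higher.

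Many targets of p53, the transcription factor that links damage to cell cycle arrest and death, rose, and 11 did not pass the test. Of 23 listed genes 21 were tested, 10 were called higher and none lower, beside 5.87% of all tested genes called higher, and the list median was 0.53. The list summed to 3429 and 3009 CPM in vehicle and 4753 and 5592 CPM in the combination. Without either vehicle library no member was called, with 16 and 11 at an unadjusted p under 0.05, and without combination 1 the count was 16. CDKN1A (chr6:36676463-36687332), the CDK inhibitor p21, went from 710.4 and 607 CPM to 1194 and 1390.1 CPM (0.97, SE 0.14, limma adjusted p 0.0101). MDM2, the ubiquitin ligase that degrades p53, went from 482 and 442 CPM to 679.6 and 782 CPM (0.66, SE 0.13, adjusted p 0.0219). FDXR, ferredoxin reductase of mitochondria, went from 24.5 and 18.7 CPM to 38.8 and 42.9 CPM (0.90, SE 0.16, adjusted p 0.0162). In these 3 genes every combination library exceeded both vehicle libraries.

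GDF15, described above, had the largest change of the list, and the kinase gene PLK3 (0.94), TP53INP1 (0.75), the sestrin genes SESN2 (0.67) and SESN1 (0.58), PHLDA3 (0.64) and the repair gene XPC (0.50) made up the other calls. BAX, a pore-forming death effector, was at 103 and 94.6 CPM in vehicle and 98.6 and 98.9 CPM in the combination, a change of -0.00. BBC3, which encodes PUMA, had 0.62 and was not called (limma adjusted p 0.0814). None of 10 BCL2 family genes was called by limma, with 2 at an unadjusted p under 0.05 and 1 called by limma voom, and MCL1, an antiapoptotic member, was at 260.3 and 225 CPM in vehicle and 208 and 245 CPM in the combination (-0.10). Without combination 1, 1 BCL2 family gene was called higher and 2 lower.

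Several genes of the integrated stress response, the program that the factor ATF4 runs when translation initiation is restrained, rose, and 8 did not pass the test. Of 15 tested members 7 were called higher and none lower, 46.7% beside 5.87% of all tested genes, the list median was 0.67, and the summed level went from 1262 and 1107 CPM to 2067 and 2025 CPM. Without either vehicle library no member was called, with 9 and 8 at an unadjusted p under 0.05, and the count was 7 without combination 1 and 10 without combination 2. ATF4 went from 143 and 133 CPM to 253 and 227 CPM (0.79, SE 0.13, limma adjusted p 0.0151). SLC7A11 and CHAC1, given above, had the largest changes of the list.

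The called members include enzymes of amino acid supply. ASNS, asparagine synthetase, went from 82.0 and 73.1 CPM to 193 and 171 CPM (1.22, SE 0.14, limma adjusted p 0.00574). PSAT1, a serine synthesis enzyme, went from 296 and 246 CPM to 472 and 560.0 CPM (0.93, SE 0.15, adjusted p 0.0125). TRIB3, a pseudokinase that acts back on ATF4, went from 41.4 and 33.8 CPM to 87.2 and 71.6 CPM (1.06, SE 0.15, adjusted p 0.0107). The groups did not overlap in any of the 3. SESN2, also on the p53 list, was called, whereas DDIT3, which encodes the death-linked factor CHOP, was at 8.78 and 8.06 CPM in vehicle and 13.9 and 11.2 CPM in the combination (0.52, adjusted p 0.150), and ATF3 had 0.26.

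ATF4 binds composite C/EBP-ATF elements, and the promoters of 2 members are shown because they hold such letters, TGATGNAA on either strand, in capitals. CHAC1 is at chr15:40953221-40953520 on the plus strand, with a match that begins at base -209 and reads on the opposite strand. ASNS is at chr7:97872359-97872658 on the minus strand and is printed on that strand, with a match that begins at base -68.
CHAC1: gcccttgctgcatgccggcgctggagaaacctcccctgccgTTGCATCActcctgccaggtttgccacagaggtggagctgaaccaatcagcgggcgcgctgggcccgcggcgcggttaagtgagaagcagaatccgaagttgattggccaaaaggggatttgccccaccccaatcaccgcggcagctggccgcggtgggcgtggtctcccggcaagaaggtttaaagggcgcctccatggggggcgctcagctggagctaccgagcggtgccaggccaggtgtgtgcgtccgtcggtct
ASNS: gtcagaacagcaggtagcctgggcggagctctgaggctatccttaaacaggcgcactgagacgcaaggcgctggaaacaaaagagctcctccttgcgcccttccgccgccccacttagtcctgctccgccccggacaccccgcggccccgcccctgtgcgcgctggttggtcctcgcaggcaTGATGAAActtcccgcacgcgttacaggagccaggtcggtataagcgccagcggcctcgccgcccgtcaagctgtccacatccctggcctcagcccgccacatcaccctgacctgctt
The letters occur in 3 of the 14 listed genes with a promoter entry, 21.4%, in 1.49% of the tested genes and in 3.63% of all promoters. They were in 2 of 6 genes called higher and 1 of 8 not called.

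Of the 4 CLK genes, which encode targets of SM08502, CLK1, CLK2 and CLK4 rose. CLK1 (chr2:200853009-200864658) went from 25.6 and 26.5 CPM in vehicle to 60.9 and 85.9 CPM in the combination (log2 change 1.44, SE 0.18, limma adjusted p 0.00689). CLK4 (chr5:178602664-178627050) went from 10.7 and 11.6 CPM to 26.6 and 49.8 CPM (1.62, SE 0.26, adjusted p 0.0123). CLK2 went from 19.5 and 20.4 CPM to 36.1 and 30.5 CPM (0.71, SE 0.13, adjusted p 0.0189). Both combination libraries were above both vehicle libraries in each, although combination 2 had the higher level of CLK1 and CLK4 by a wide margin.

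CLK3, the remaining family member, was at 40.9 and 43.5 CPM in vehicle and at 77.3 and 52.9 CPM in the combination and was not called (0.59, SE 0.17, limma adjusted p 0.0644). The list adds related kinases, such as those of the DYRK and SRPK families. Of its 12 tested genes 3 were called higher, 25.0% beside 5.87% of all tested genes, and none lower, with a median of 0.25. Without either vehicle library none was called. Without combination 1, 4 were called higher and 1 lower, and without combination 2, 4 were called higher.

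Splicing factor lists differed in how many members were called, beside 10.5% of all tested genes. Of 22 SR proteins and partners, SRSF5 alone was called higher, from 79.5 and 86.5 CPM to 123 and 109.5 CPM (0.48, limma adjusted p 0.0347), and of 21 hnRNP genes HNRNPR alone (0.41, adjusted p 0.0400), 4.55 and 4.76% of those lists, with a median of 0.11 in each. Of 25 core spliceosome genes 5 were called higher and 3 lower, with a median of 0.13; without combination 1 the core count was 7 higher and 6 lower, and that of the SR list 4 and 1. PRPF3, a protein of the U4/U6 particle, stood out, going from 27.7 and 31.1 CPM to 78.5 and 65.3 CPM (1.26, SE 0.14, adjusted p 0.00456). U2AF2, which binds the polypyrimidine tract of introns, went the other way, from 101 and 102 CPM to 72.3 and 46.7 CPM (-0.80, adjusted p 0.0382).

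The other core calls were higher for PRPF4 (0.53), SF3B4 (0.51), SF3A3 (0.48) and SNRPA (0.45) and lower for PRPF8 (-0.56) and SF3B3 (-0.55), all with smaller changes than PRPF3. RBM8A, a core protein of the exon junction complex, was the only one of 13 genes of nonsense-mediated decay to be called, from 76.4 and 77.2 CPM to 136 and 142 CPM (0.85, limma adjusted p 0.00846). CDK9, the kinase that releases paused RNA polymerase II, was the only call among 15 transcriptional CDKs and cyclins, from 46.8 and 39.9 CPM to 72.6 and 59.7 CPM (0.60, adjusted p 0.0329).

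Wnt target genes were called about as often as all tested genes, at 9.09% of the list against 10.5%. Of 20 Wnt target genes 11 were tested, and AXIN2, a feedback inhibitor and the usual reporter gene of the pathway, was the only call. It was at 31.7 and 28.8 CPM in vehicle and at 44.2 and 40.4 CPM in the combination, a change of 0.47 (SE 0.12, limma adjusted p 0.0436). The call was lost in 15 of 23 alternatives, among them all 32 libraries (adjusted p 0.0557) and leaving out either vehicle library (0.154 and 0.255). Other calls in this report were fragile too. Of 23 alternatives, HERC1 kept its call in 8, HSPA4 in 9, HNRNPR and SF3A3 in 10, TNFAIP3 in 11 and TUBB3 in 12, whereas CTGF kept it in 23. CCND1, cyclin D1, was at 662 and 667 CPM in vehicle and 907 and 733 CPM in the combination and was not called (0.29, limma adjusted p 0.188). CTNNB1 itself was at 266 and 213 CPM in vehicle and 220.4 and 246 CPM in the combination (-0.03), with overlapping groups.

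Neither the Wnt receptors (11 tested, median -0.11) nor the beta-catenin and destruction complex genes (16 tested, median 0.01) had a member called by limma, with 4 and 1 at an unadjusted p under 0.05 and 0 called by limma voom in both lists. Without combination 1, however, 3 receptors and 6 complex genes were called, and 3 receptors with all 32 libraries. LRP5, a Wnt coreceptor, came closest, at 48.1 and 66.6 CPM in vehicle and 33.2 and 14.9 CPM in the combination (-1.30, SE 0.36, limma adjusted p 0.0553). Its value moved with the libraries: without combination 1 it was -1.85 (adjusted p 0.00221), and with the length score as a covariate it was -0.67. LRP6, the related coreceptor, had 0.23.

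Paclitaxel acts on tubulin, and of 23 tubulins and microtubule regulators 2 were called, both lower. That is 8.70% of the list, near the 10.5% of all tested genes, and the list median of 0.06 equals theirs. TUBB3, a beta-tubulin isotype linked in the literature to taxane resistance, was at 328 and 290.1 CPM in vehicle and 225 and 200.4 CPM in the combination (-0.54, limma adjusted p 0.0282). CLASP1, a microtubule plus-end stabiliser, was at 154 and 158 CPM in vehicle and 105 and 96.5 CPM in the combination (-0.63, adjusted p 0.0124). TUBB, a widely expressed beta-tubulin gene, was at 1594 and 1547 CPM in vehicle and 1767 and 1516 CPM in the combination (0.06), with overlapping groups. None of 5 tested ABC transporter genes was called by limma, with 1 at an unadjusted p under 0.05 and 0 called by limma voom.

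Of 13 NF-kappaB targets 4 were called higher and 1 lower, 30.8 and 7.69% beside 5.87 and 4.68% of all tested genes, with a median of 0.37. RELB, an NF-kappaB subunit, went from 19.2 and 19.4 CPM to 35.5 and 34.2 CPM (0.82, adjusted p 0.00981), while the cytokine IL6 went from 23.2 and 22.0 CPM to 14.1 and 11.8 CPM (-0.76, adjusted p 0.0206). TNFAIP2 (0.61), NFKB1 (0.52) and TNFAIP3 (0.47) were the other calls.

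Immediate early genes were split. Of 15 tested, beside 5.87% of all genes called higher and 4.68% lower, 3 were called higher and 3 lower, with a median of -0.16. DUSP6, a phosphatase of ERK, went from 148 and 126 CPM to 212 and 255 CPM (0.76), and the factor genes KLF4 (0.67) and IER2 (0.56) were higher. FOS, a subunit of the AP-1 factor, went from 65.5 and 67.2 CPM to 36.8 and 31.7 CPM (-0.94, limma adjusted p 0.00981). The AP-1 subunit genes JUN (-0.63) and FOSL2 (-0.50) were lower too. Of 13 YAP targets, CTGF and ANKRD1 were called higher and AXL, a receptor kinase, lower (-0.87), 23.1% in all, with a median of 0.07. ANKRD1, a nuclear repeat protein, went from 9.0 and 8.26 CPM to 19.4 and 26.8 CPM (1.31, SE 0.18, adjusted p 0.0101).

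For the remaining lists the counts can be read beside the same 10.5%. Of 13 heat shock chaperones HSPA1B (0.68) and HSPA4 (0.43) were called higher and HSP90B1 (-0.61) lower, 23.1% in all. Of 11 interferon-stimulated genes IRF1 (0.56) was higher and DDX58 (-0.69) lower, 18.2% in all, with a median of -0.31. Of 11 tested genes of epithelial and endometrial identity CLDN4, a tight junction protein, was lower (-0.56). Replication-dependent histones (11 tested), ribosomal proteins (24 tested), mesenchymal genes (3 tested) and mitochondrially encoded genes (13 tested) had none called by limma, with 1, 4, 2 and 0 at an unadjusted p under 0.05 and 0 called by limma voom in each. The median of the ribosomal protein genes was 0.12. That of the mitochondrially encoded genes was -0.56 and rested on single libraries, being -1.12 and -0.02 without vehicle 1 and 2, and -1.07 and 0.03 without combination 1 and 2. Of the 28 long transcripts AHNAK (-0.89) and HERC1 (-0.41) were lower, 7.14% of the list, with a median of -0.24. Without combination 1 the count was 12 lower (median -0.40), and without combination 2 the median was -0.03. Without either vehicle library every one of these list counts was 0, except that CTGF stayed called.

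**Figure D3:**
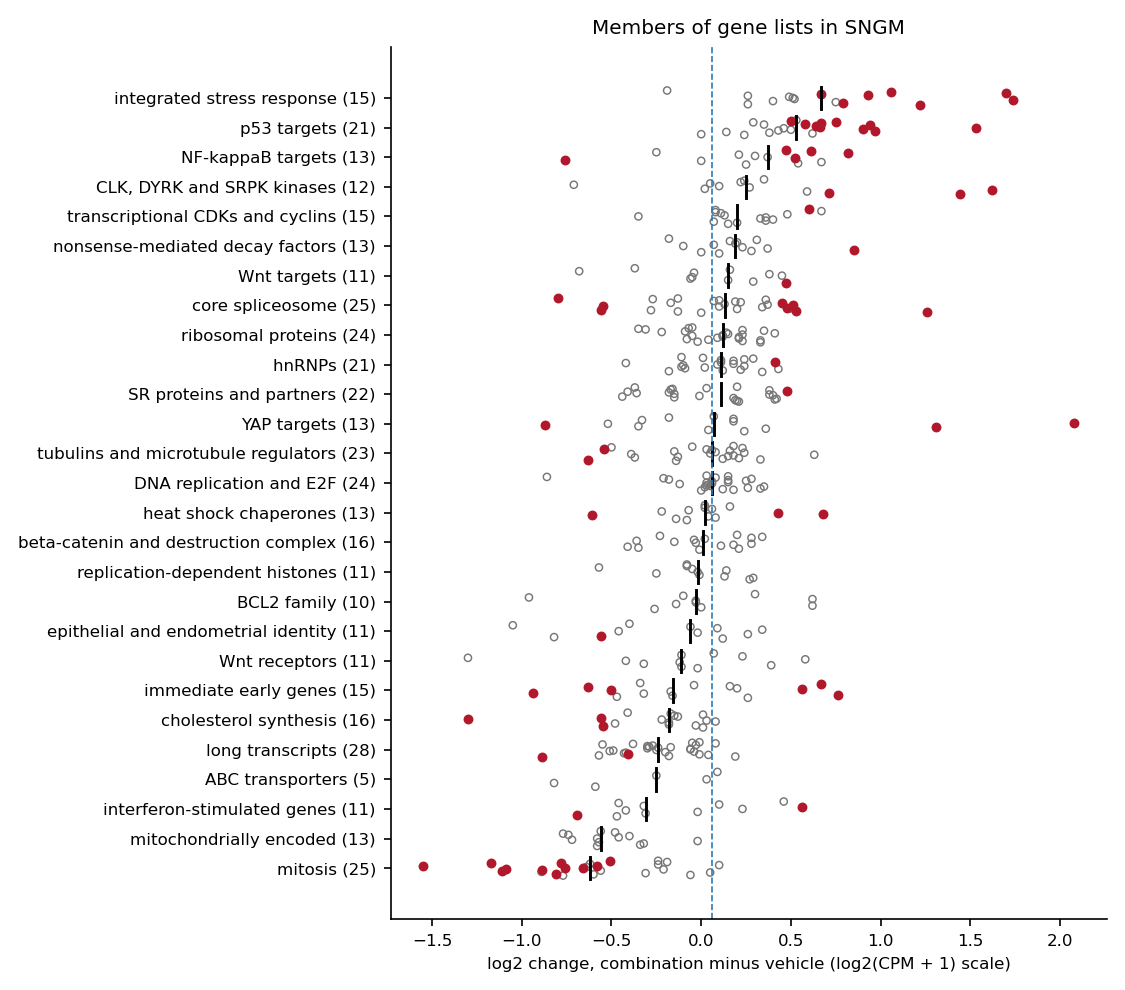
Log2 change, combination minus vehicle (horizontal axis, log2(CPM + 1) scale), of each tested member of the gene lists (vertical axis, number tested in brackets); red filled circles were called, open circles were not, black bars are list medians and the dashed line is the median of all tested genes, 0.06. The integrated stress response and p53 lists have the highest medians, 0.67 and 0.53, and the mitosis list the lowest, -0.62.

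Several genes of interest lay below the level filter and were not tested. CCDC150P1, a pseudogene, was at 1.88 and 2.14 CPM in vehicle and at 22.1 and 13.1 CPM in the combination, with 21.4 and 13.4 CPM after SM08502 alone. MUC16, which encodes the mucin that carries the tumour marker CA-125, was at 7.38 and 13.2 CPM in vehicle and at 1.37 and 0 CPM in the combination. HYAL3, a hyaluronidase gene, was at 10.5 and 8.56 CPM in vehicle and at 2.26 and 0 CPM in the combination. The levels of CCDC150P1 were higher and those of MUC16 and HYAL3 lower in both combination libraries, with no test. ABCB1, the efflux pump that exports paclitaxel, was at 2.27 and 1.26 CPM in vehicle and 2.0 and 0 CPM in the combination, which at the depth of combination 2 shows no detectable difference.

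The combination was also compared with each drug alone, which asks what the second drug adds. Against SM08502 alone, the combination had no gene called by limma (0% of 9642), with 607 genes at an unadjusted p under 0.05, a smallest adjusted p of 0.701, and 0 called by limma voom. The fit with all 32 libraries called 18 genes, and without combination 1 the count was 1950. The median half-width of the unadjusted 95% interval of a gene's difference was 0.35 on the log2 scale. Smaller differences were mostly not detectable, and adjustment over 9642 genes left larger ones uncalled as well.

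Unadjusted 95% intervals show what that leaves room for. KIF20A was at 54.8 and 76.7 CPM after SM08502, and its difference of combination minus SM08502 was -0.57 (-0.93 to -0.21). CTGF had a difference of 0.80 (0.52 to 1.08) and CLK4 of 0.62 (0.03 to 1.21). For CHAC1 it was 0.03 (-0.55 to 0.61), for ASNS 0.02 (-0.31 to 0.34), for CDKN1A 0.09 (-0.22 to 0.41), for CCNB1 -0.08 (-0.56 to 0.41) and for PLK1 -0.28 (-0.77 to 0.22). The first 3 intervals exclude 0 without adjustment, the others include it, and none passed the adjusted threshold.

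Against paclitaxel alone, the combination had 308 genes higher and 288 lower, 3.19 and 2.99% of those tested. The calls for the mitosis list were 6 lower (CCNB1, PLK1, CDC20, PTTG1, CENPA and KIF20A), for the p53 list 4 higher (CDKN1A, GDF15, PLK3 and FDXR) and for the stress response list 6 higher (ATF4, TRIB3, ASNS, CHAC1, PSAT1 and SLC7A11). The largest rises were ZBTB45P1 (1.72), CTGF (1.61), SEC31B, a vesicle coat gene (1.50), and CLK4 (1.45). The largest falls were CCDC109B (-1.87), ITGB5 (-1.79), TNFRSF6B, a soluble decoy receptor (-1.77), and CELSR1, a planar polarity cadherin (-1.56). This count too depended on the libraries, being 0 without either paclitaxel library and 3229 without combination 1.

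The single drugs can be set against the same vehicle libraries, which all 3 comparisons share, so the values are given side by side. SM08502 alone had 171 genes called higher and 250 lower than vehicle, 1.77 and 2.59% of those tested or 4.37% in all. Paclitaxel alone had none called by limma (0%), with 95 genes at an unadjusted p under 0.05 and a smallest adjusted p of 0.833. The median of the mitosis list was -0.11 with paclitaxel, -0.49 with SM08502 and -0.62 with both. For p53 targets the medians were 0.20, 0.42 and 0.53, and for the stress response 0.15, 0.63 and 0.67. For NF-kappaB targets they were 0.39, 0.15 and 0.37.

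Some genes differed in how the drugs lined up. TUBB3 was at 386 and 372 CPM with paclitaxel, 153 and 160.1 CPM with SM08502 and 225 and 200.4 CPM with both, so that the combination lay between the drugs. CTGF was at 24.8 and 25.0 CPM with paclitaxel and at 43.9 and 44.7 CPM with SM08502, both below the combination. The departure from additivity, which is the combination change minus the sum of the changes with each drug, was called by limma for no gene (0%), with 224 genes at an unadjusted p under 0.05, a smallest adjusted p of 0.998, and 0 called by limma voom. It was 0.32 (SE 0.17) for CTGF and -0.29 for KIF20A. The fit with all 32 libraries called 3 genes, and without combination 1 the count was 377.

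**Figure D4:**
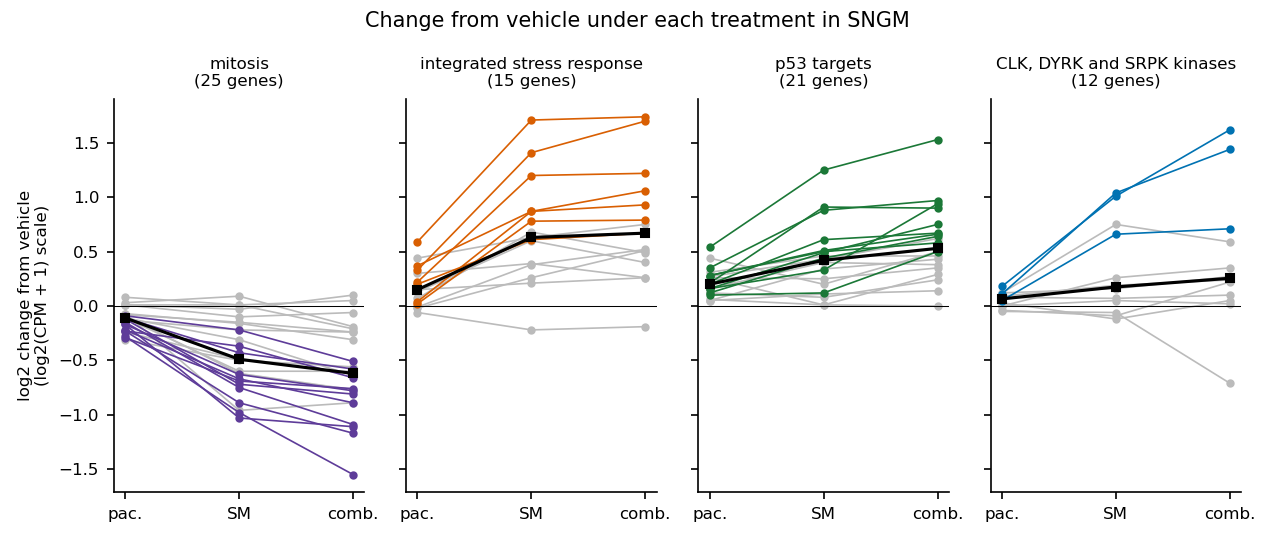
Log2 change from the shared vehicle libraries (vertical axis, log2(CPM + 1) scale) with paclitaxel (pac.), SM08502 (SM) and both (comb.) for members of 4 gene lists; each line is a gene, coloured where the combination was called against vehicle, and black squares are list medians. The mitosis median goes from -0.11 with paclitaxel to -0.49 with SM08502 and -0.62 with both.

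HEC265, another endometrial cancer line of the study, was given the same treatments at its own inhibitory doses, 5.6 nM paclitaxel and 149 nM SM08502, so that line and dose cannot be told apart. There 3791 of the same 9642 genes were called against vehicle in a fit of both lines, 39.3%, with 24.1% higher and 15.2% lower. That fit of 16 libraries had 8 residual degrees of freedom, and the median SE of this change was 0.12. The SNGM fit behind the 10.5% called had 4, with a median SE of 0.15. The 39.3 and 10.5% therefore do not compare the strength of the response, which was not tested as a whole. In the fit of both lines, 604 genes had a higher change in SNGM than in HEC265 and 510 a lower one, 6.26 and 5.29% of those tested. The genes were filtered on their level in the SNGM libraries alone. Genes that HEC265 hardly expresses could thus enter, while genes expressed only in HEC265 could not, and these shares hold for that set. The number of genes with such a difference was 668 without vehicle 1 and 3747 without combination 1 of SNGM.

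The integrated stress response differed most clearly between the lines. Of its 15 tested genes 12 had a higher change in SNGM and 1, ATF3, a lower one, beside 6.26 and 5.29% of all tested genes. In HEC265 the list had 2 genes called higher and 5 lower, beside 24.1 and 15.2% of all tested genes there. Its median was -0.21 in HEC265 against 0.67 in SNGM. ASNS was at 170.3 and 178 CPM in HEC265 vehicle and at 113 and 99.9 CPM in its combination, a change of -0.71, and the difference of SNGM minus HEC265 was 1.93 (limma adjusted p 3.44e-05). PSAT1 went from 458 and 463 CPM to 276 and 259 CPM in HEC265 (difference 1.71, adjusted p 6.67e-05). CHAC1 went from 15.2 and 12.9 to 9.85 and 9.36 CPM there (difference 2.24, adjusted p 7.23e-04). ASNS and PSAT1 thus fell in HEC265 and rose in SNGM, whereas the HEC265 change of CHAC1 (-0.50) was not called.

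SLC7A11 was already at 768 and 731 CPM in HEC265 vehicle and reached 870.1 and 898 CPM, a change of 0.24 and a difference between lines of 1.46 (limma adjusted p 5.64e-05). ATF4 itself was at 306 and 307 CPM in HEC265 vehicle and at 274 and 273 CPM in its combination (difference 0.96, adjusted p 0.00133). In vehicle, both genes stood higher in HEC265 than in any SNGM vehicle library.

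YAP targets and immediate early genes also differed. CTGF was at 135 and 137 CPM in HEC265 vehicle and at 120.3 and 138 CPM in its combination, a change of -0.08 and a difference of 2.16 (limma adjusted p 6.56e-06), and 6 of the 13 YAP targets had a higher change in SNGM and none a lower one. Of the 15 immediate early genes 7 had a lower change in SNGM and none a higher one. Over all tested genes 6.26% had a higher and 5.29% a lower change in SNGM. JUN went from 35.5 and 41.0 CPM to 63.8 and 65.4 CPM in HEC265, while it fell in SNGM (difference -1.37, adjusted p 0.00125).

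Some mitosis genes were called lower in each line. In HEC265 10 of the 25 were called lower, beside 15.2% of all tested genes there, and none higher, with a median of -0.33. A lower change in SNGM was called for 3, beside 5.29% of all tested genes. These were KIF20A, at 119 and 117 CPM in HEC265 vehicle and 105 and 96.6 CPM in its combination (difference -1.33, limma adjusted p 8.16e-04), CDC20 (difference -1.0, adjusted p 0.00257) and PTTG1 (difference -0.89, adjusted p 0.00168). Of 21 p53 targets 15 were called higher in HEC265, beside 24.1% of all tested genes there, with a median of 0.47. Between the lines 1 gene differed each way, SESN2 (0.80) and AEN (-0.52).

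Genes of the splicing kinases and of Wnt signalling complete the comparison. CLK1 went from 15.1 and 16.3 CPM to 61.4 and 63.1 CPM in HEC265, and its difference of -0.48 was not called (limma adjusted p 0.136). CLK3 went from 29.0 and 29.3 CPM to 112 and 108 CPM there, with a difference of -1.29 (adjusted p 0.00134). AXIN2 went from 144 and 145 CPM to 108 and 92.5 CPM in HEC265, a fall where SNGM had a rise (difference 1.00, adjusted p 7.21e-04). CLK3 thus responded more in HEC265 and AXIN2 moved in opposite directions. Of the 12 tested genes of the CLK, DYRK and SRPK list, CLK3 alone had a lower change in SNGM and 3 a higher one. Over all tested genes these shares were 5.29 and 6.26%. In HEC265, 5 of the 12 were called higher and 3 lower, beside 24.1 and 15.2% of all tested genes there.

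The largest differences by size lay partly in genes that HEC265 hardly expresses and that passed the level filter through SNGM. IGFBP5 (-1.87) and CCDC109B (-1.86) were near 0 in HEC265, as was FUT11, a fucosyltransferase gene, at 1.02 and 1.54 CPM in its vehicle (-1.96). FOXJ1, the master factor of motile cilia, was at 21.1 CPM in both SNGM vehicle libraries and 28.3 and 21.2 CPM in the combination, and went from 14.8 and 13.0 to 2.44 and 1.77 CPM in HEC265 (difference 2.47). CD68 went from 8.99 and 8.42 CPM to 38.2 and 50.4 CPM in HEC265, with a difference of -1.76.

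**Figure D5:**
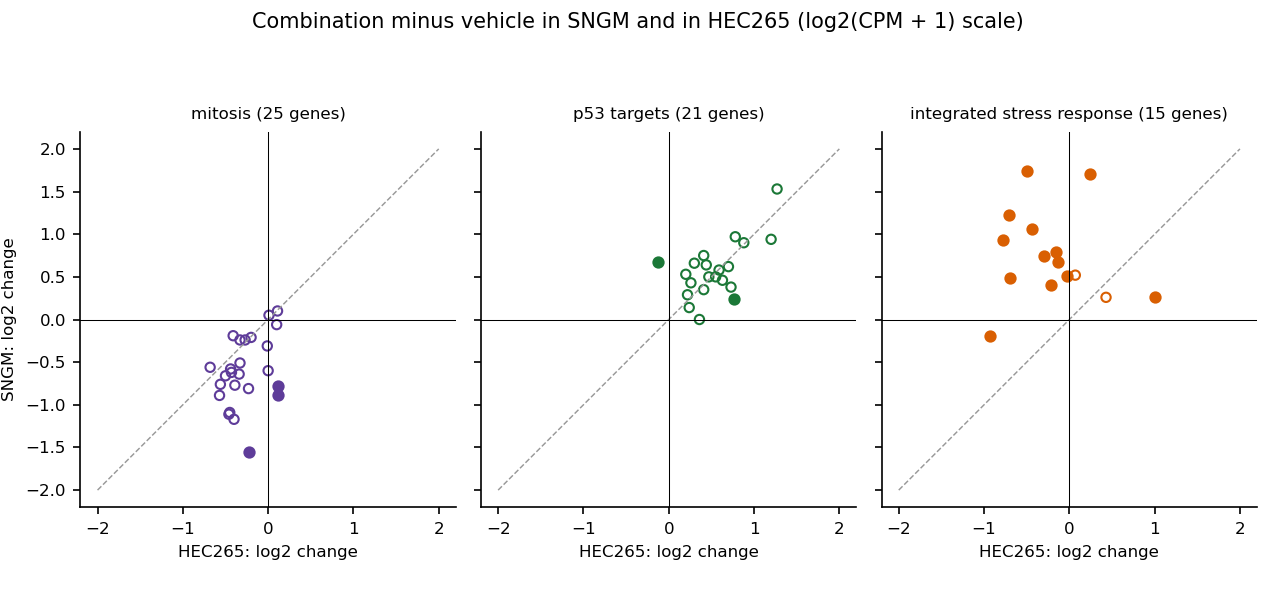
Log2 change with the combination against vehicle in SNGM (vertical axis) and HEC265 (horizontal axis), both on the log2(CPM + 1) scale, for members of 3 gene lists; filled circles are genes whose change differed between lines and the dashed line marks equal change. Of 15 stress response genes 13 are filled, against 3 of 25 mitosis genes and 2 of 21 p53 targets.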

How the data were processed

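Total RNA from 4 endometrial cancer lines was depleted of ribosomal RNA and sequenced, per the labels' protocols. The submitters' processing notes name bcl2fastq, STAR, kallisto and GRCh38, with no role for each, and the counting strand is not given in the sources used here. The authors deposited log10 values, log10(CPM + 1), for 35238 genes in 32 libraries. They were returned to CPM, which summed to 1000000 in each library, and 100% of the values were whole multiples of 1 read within 0.01 read, which gave the depths. Genes with a mean of at least 10 CPM over the 8 SNGM libraries (9642) were tested on log2(CPM + 1) with limma 3.58.1 in R 4.3.3, with 1 mean per group, a spread shared by the 8 libraries (4 residual and 3.93 prior degrees of freedom), an intensity trend and Benjamini-Hochberg adjustment over all tested genes, called at 0.05. This scale understates changes of low genes. The SNGM and HEC265 changes were compared in a fit of 16 libraries (8 residual degrees of freedom). The fit was checked on simulated counts with independent libraries and the same dispersion for every gene. That check does not cover the correlated replicate deviations of these libraries.

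The naming rule took the 12 largest called rises and falls whose groups do not overlap. It added up to 4 genes of smallest p per list, 20 fixed genes and the 4 largest calls each way of the other comparisons. Some of the smallest-p and fixed genes, PYCARD among them, are not given in the text. The other list members were named after their values were seen. The gene lists (31, with 529 entries), the members and the tests were chosen with earlier results of these data known. Of 147 genes named by the rule 143 matched a RefSeq record. Of these, 84 overlap another gene on either strand, so that their reads may be shared. Both counts include MT-CO2, which was matched through a synonym to the pseudogene MTCO2P12 and not to the mitochondrial gene. Promoters came from RefSeq (GRCh38.p14). With 2 libraries against 2 an exact permutation test cannot give a p below 0.333, so limma alone was used. Libraries with the same replicate number were not paired: deviations correlated at 0.75 between vehicle and paclitaxel and at 0.51 between SM08502 and the combination, but at -0.60 to -0.51 across these. Tables of splicing events were not analysed here. Results for the cholesterol synthesis list are not reported here.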

Additional observations from a re-analysis of the deposited data

Results flagged for a closer look

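The values here are differences between lines, the log2 change with both drugs in SNGM minus that in HEC265, each called by limma in the fit of both lines. The genes that rose or fell most were picked by their SNGM change, which is itself part of the difference. For them a difference in the direction of the SNGM change was favoured in advance, and only called differences are listed. The doses differed between the lines, so line and dose cannot be told apart.

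Among the genes that rose most in SNGM, the difference was 2.58 for ROCK1P1, 2.24 for CHAC1, 2.16 for CTGF, 1.77 for APOBEC3F, 1.46 for SLC7A11, 1.30 for GPR158, 0.70 for ZBTB45P1 and 0.63 for FAM200B. CTGF changed by 2.08 in SNGM and -0.08 in HEC265, and CHAC1 by 1.74 and -0.50. APOBEC3F and GPR158 were near 0 in HEC265.

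Among the genes that fell most in SNGM, the difference was -1.87 for IGFBP5, -1.86 for CCDC109B, -1.42 for HAVCR1, -1.26 for AKR1C1, -1.14 for FLRT3 and -1.04 for AKR1C3. IGFBP5, CCDC109B and HAVCR1 were near 0 in HEC265.

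Of the other genes named by rule, ANKRD1 had a difference of 1.57, GPD1L of 1.23, AXIN2 of 1.00 and CLK3 of -1.29. GPD1L changed downward in both lines, by -1.26 in SNGM and -2.49 in HEC265. The largest differences among all tested genes further included FOXJ1 at 2.47, FUT11 at -1.96 and CD68 at -1.76.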

How the results depend on the processing

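The count of genes called between combination and vehicle (1017) was within 1.5 times under other level filters of 1 and 30 CPM, a pseudocount of 0.1, both re-scalings, CPM without PLCG2, RIMBP3C and mitochondrial genes, no intensity trend, limma voom (1042) and the length score, an alternative chosen after seeing the data (1181). It was 263 with no filter, 102 with array weights, 16 with the compared groups alone and 2327 with all 32 libraries. Leaving out a library gave 1 (vehicle 1 or 2) to 3558 (combination 1). For the combination against paclitaxel (596) the counts were 124 with no filter, 27 with array weights, 0 with the groups alone (1520 at an unadjusted p under 0.05), 1951 with all 32 libraries, 1414 with the length score, and 0 (paclitaxel 1 or 2) to 3229 (combination 1) without a library, with 107 and 108 without vehicle 1 and 2 and 114 without either SM08502 library. Centring on medians moved its share of higher calls from 51.7 to 39.5%. Against SM08502 the count of 0 became 18 with all 32 libraries, and 0 to 1950 without a library; the departure from additivity became 3, and 0 to 377. The difference between lines (1114) was 297 with array weights, 646 with all 32 libraries, 165 with the groups alone, 2207 with the length score, and 668 (vehicle 1) to 3747 (combination 1) without a library, with 1763 without combination 2. The cause of these moves was not tested, except that the groups alone leave fewer samples.

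With the replicate number as a block, 394 genes were called against vehicle, 98 against paclitaxel and 861 between lines. Replicate deviations correlated at 0.75 between vehicle and paclitaxel and at 0.51 between SM08502 and the combination, but negatively across these pairs. A single block by number therefore does not describe all the groups. With the numbers crossed for SM08502 and the combination, chosen after seeing the data, the counts were 2884, 2416 and 2283.

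Over the alternatives, named genes stayed on their side of the threshold in 2581 cases, lost the call in 478 and gained it in 167. No called change reversed, and 11 genes changed sign in 15 cases in which they were not called. List counts moved by over 1.5 times in 291 of their cases. A planned quasi-likelihood count test was not run; limma voom was fitted to the recovered reads. The depth of combination 2, where 10 CPM is 16.1 reads, limits every low gene.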
